A study of Homo sapiens with 4 samples.

Results

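The clustered protocadherins are adhesion proteins encoded by 3 gene clusters, α, β and γ, that lie side by side on chromosome 5. Members were taken by symbol from the count table: every gene whose name starts with PCDHA, PCDHB or PCDHG followed by a subtype letter or a digit. Symbols ending in P, which mark pseudogenes, were left out. This gave 55 of the 63241 genes in the table, 16 in the α cluster, 17 in the β cluster and 22 in the γ cluster. The 17 in the β cluster include the antisense transcript PCDHB1-AS1, which was kept out of the β sum, and the 16 in the α cluster include PCDHA14, a transcribed pseudogene in the GENCODE 29 annotation.

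The RNA came from LX-2 cells. This immortalised line from human liver stellate cells stands in for the liver's matrix-forming cell and is not the primary cell. All cells were starved for 24 h in 0.5% serum and collected 24 h later. The 4 groups were TGF-β at 20 ng/mL with BDS4 at 5 µM, TGF-β at 20 ng/mL with RVX-208 at 5 µM, TGF-β at 20 ng/mL alone, and a control without TGF-β, with 1 library each. BDS4 is a code name, and the series' title names covalent inhibitors of the BD1 bromodomain of BET proteins, the readers of acetylated histones. RVX-208 is known as a BET inhibitor that prefers the second bromodomain. DMSO is named in the description of the TGF-β library alone, so whether the control had vehicle is unknown here.

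Total counts were 21618509 with BDS4, 17022369 with RVX-208, 21860122 with TGF-β alone and 22503094 in the control. Of 12 stellate or mesenchymal markers, 9 were measured, and VIM, the mesenchymal filament gene, had 4080, 4052, 3551 and 3290 scaled counts per 1000000 (CPM) in that order, while LRAT, the enzyme of vitamin A storage in quiescent stellate cells, was at 0 in every library. Of PMEPA1, a TGF-β target, there were 53.3, 357, 355 and 5.78 CPM. HEXIM1, whose RNA is known to rise under BET inhibition, had 622, 252, 166 and 152 CPM. The 2 mitochondrial ribosomal RNAs took 0.903% of counts with BDS4, 0.230% with RVX-208, 0.248% with TGF-β alone and 0.212% in the control. Because the groups have no replicates, no test across cultures was possible. A ratio between libraries is given with a 95% exact interval that covers counting error only. Calls of higher or lower follow a rule of size: a ratio of 2-fold or more, with an interval that does not hold 1.

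Clustered protocadherins sit on the cell surface, where each isoform binds its own kind on the facing cell. They are best known from neurons, where each cell uses a few of the many promoters and so gains a surface identity that lets its branches avoid each other. Promoter use there depends on CTCF and cohesin, which loop distant enhancers to the promoters, and on DNA methylation of the promoters left silent. Each α and γ gene supplies 1 large variable exon, with its own promoter, that codes for the extracellular cadherin repeats and the membrane span. This exon is spliced to 3 constant exons that code for the shared end of the intracellular tail. The β genes have no constant exons, and in GENCODE 29 each of the 16 β genes has a single coding exon.

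The exon structure decides what a count of 1 member can mean, so the splice junctions of 4 γ genes with different patterns across the libraries are shown. They are taken from GENCODE 29 on GRCh38, plus strand of chromosome 5, each with the last 30 coding bases of the variable exon in lower case and the first 30 bases of the constant exons in capitals.

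PCDHGA3: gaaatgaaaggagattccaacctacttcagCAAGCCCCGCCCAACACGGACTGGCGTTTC

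PCDHGB4: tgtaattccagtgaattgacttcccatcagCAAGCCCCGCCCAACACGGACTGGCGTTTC

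PCDHGB7: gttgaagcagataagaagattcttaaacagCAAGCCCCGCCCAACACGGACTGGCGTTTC

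PCDHGC3: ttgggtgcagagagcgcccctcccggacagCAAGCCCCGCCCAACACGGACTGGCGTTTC

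The capitals are the same in all 22 γ genes, since all splice to the same coding segments of 59, 89 and 224 bases (chr5:141494807-141494865, chr5:141505393-141505481 and chr5:141510947-141511170). The shares of a γ gene's exon bases that lie within exons of other genes on the same strand ranged from 27.6% to 64.4%, and for α genes from 21.3% to 56.6%, apart from the pseudogene PCDHA14, whose exon bases all lie within exons of other genes. PCDHB2, the β gene with most counts, shares none in the GENCODE annotation, from which all these shares were taken. The gene length behind its deposited FPKM was 7566 bases, against 4126 annotated exon bases. Overlap in the gene models behind the deposited values was not tested, so the shares there may differ. The antisense gene PCDHB1-AS1 crosses PCDHB2 on the other strand and had at most 2 counts in a library; the strand setting of the counting is unknown here, so reads of the pair cannot be told apart with certainty. No source used here says how reads in shared exons were counted. PCDHGA3 had 1 count with BDS4 and 0 with RVX-208, in libraries where PCDHGB4 had 797 and 1161. Reads of the constant exons were therefore not counted for every γ member, but a split between members cannot be told from the table, and each single γ value carries that uncertainty. The cluster sums do not depend on the split unless reads were counted more than once. PCDHGB4 and PCDHGA8 also overlap outside the constant exons.

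Many of the promoters carry the short sequence element known from the protocadherin clusters, with CGCT at its core, where CTCF is known to bind. RefSeq promoters (250 bases before to 50 after the annotated start, GRCh38.p14) were at hand for 47 of the 55 members. Windows of 36 bases around the core are shown for some of the members that the results below turn on, gene strand, with CGCT in capitals. No window was obtained for PCDHGB7 or PCDHGC5.

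PCDHB2 (chr5:141094542-141094577): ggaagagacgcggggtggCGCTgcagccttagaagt

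PCDHGA3 (chr5:141343765-141343800): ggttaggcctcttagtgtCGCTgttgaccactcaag

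PCDHGB1 (chr5:141350023-141350058): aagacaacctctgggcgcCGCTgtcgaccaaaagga

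PCDHGA6 (chr5:141373833-141373868): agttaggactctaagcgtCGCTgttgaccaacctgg

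PCDHGB4 (chr5:141387615-141387650): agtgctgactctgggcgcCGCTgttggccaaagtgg

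PCDHGA9 (chr5:141402712-141402747): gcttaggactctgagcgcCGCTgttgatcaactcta

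PCDHGA11 (chr5:141420970-141421005): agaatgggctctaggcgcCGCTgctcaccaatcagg

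PCDHGC3 (chr5:141475878-141475913): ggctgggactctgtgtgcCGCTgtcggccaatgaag

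On either strand, CGCT was present in 46 of the 47 member promoters, against 71.9% of all 27305 promoters in the table, so the 4 letters alone say little. Longer strings, chosen after the member promoters had been read and overlapping each other at CGCT, differed by cluster. GGTGGCGCTG was in 12 of 14 β promoters and in 0 α and 0 γ promoters, against 0.341% of all promoters. ATGATGTCGCT was in 8 of 13 α promoters, against 0.0293% of all. CGCTGTTNNCCAA was in 6 of 20 γ promoters, against 0.0366% of all, and GCCGCTGTT in 7 of 20, against 0.396%. These matches describe letters in a window, not bound sites. As printed above, PCDHGA3 and PCDHGB4 both carry CGCTGTTG, while their counts across the libraries differed.

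The γ cluster held nearly all the counts, the β cluster few, and the α cluster almost none. Summed γ levels were 107 CPM with BDS4 (2186 counts), 177 with RVX-208 (2977 counts), 293 with TGF-β alone (6469 counts) and 154 in the control (3668 counts). The TGF-β library was the highest and the BDS4 library the lowest. Summed β levels were 3.29, 6.77, 11.9 and 8.54 CPM in the same order, from 67, 114, 262 and 204 counts. Summed α levels were 0.638, 1.72, 2.22 and 2.09 CPM, from 13, 29, 49 and 50 counts. All clusters were lowest with BDS4.

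**Figure D1:**
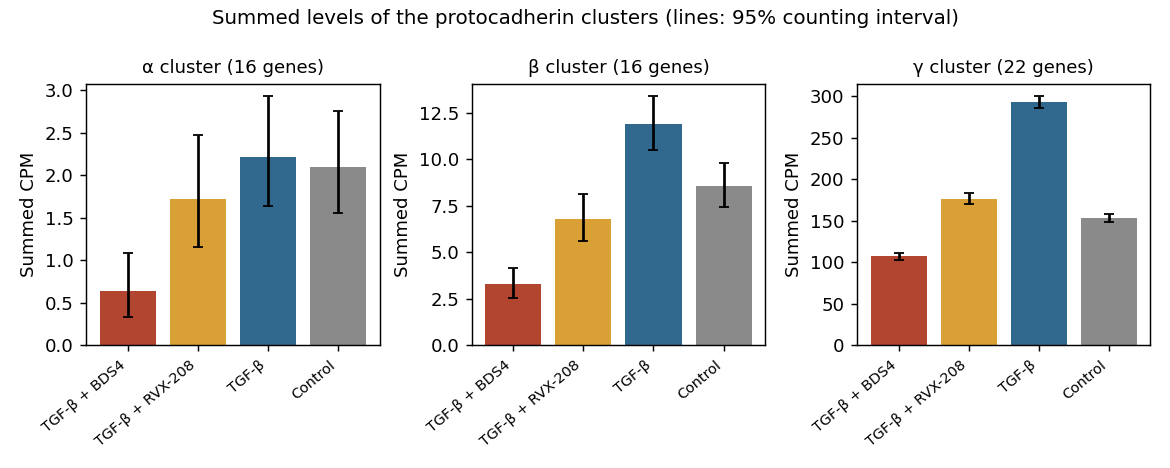
Summed CPM of the α, β and γ clusters (vertical axis, a separate scale for each panel) in the 4 libraries, with lines for the 95% counting interval. The γ panel reaches 293 CPM in the TGF-β library, the β panel 11.9 and the α panel 2.22.

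Of the 55 members, 19 reached 1 CPM in at least 1 library and were tested with the 16099 genes that passed this filter: 18 γ genes and PCDHB2. Tested here means compared by the rule of size, with no replicate test. The filter keeps a member for its highest library, so these 19 are not a sample of the family. None of the 55 was at 0 in all libraries. Members with at least 1 count numbered 33 with BDS4, 37 with RVX-208, 46 with TGF-β alone and 48 in the control. No α gene was tested, and the highest had 17 counts in any library. At this depth, levels of single α genes could not be told apart. A floor of 3 counts stood for 0.147, 0.178, 0.136 and 0.126 CPM in these libraries.

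Over the whole α cluster, the BDS4 sum was 3.48-fold lower than with TGF-β alone (1.86 to 6.995) and the RVX-208 sum 1.29-fold lower (0.798 to 2.11), an interval that includes 1. The TGF-β sum was 1.06 times the control sum (0.700 to 1.60), also within counting error.

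PCDHB2 is a β protocadherin that, in the GENCODE annotation, shares no exon bases with another member on its own strand. Overlap in the longer gene model behind its deposited FPKM was not tested. PCDHB2 had 60 counts with BDS4, 97 with RVX-208, 219 with TGF-β alone and 151 in the control. In that order, its levels were 2.94, 5.76, 9.92 and 6.32 CPM. The TGF-β library was the highest and the BDS4 library the lowest. Its level was 1.57-fold higher with TGF-β than in the control (1.27 to 1.94), below the 2-fold rule. With BDS4 it was 3.37-fold lower than with TGF-β alone (2.52 to 4.56), a call, and with RVX-208 1.72-fold lower (1.35 to 2.21), no call. The other 15 β genes together had 7, 17, 43 and 53 counts. Their sum was 0.878 times the control with TGF-β (0.573 to 1.34), so the higher β sum with TGF-β came from PCDHB2, and it was 5.67-fold lower with BDS4 than with TGF-β alone (2.53 to 14.9). The β genes resemble each other in sequence, and reads that fit several of them may have been left out.

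With TGF-β alone against the control, 8 of the 19 tested members were called higher, 2 lower and 9 neither. Over all genes tested, 5.32% were called higher and 4.35% lower. The median log2 ratio of the 19 members was 0.64, against -0.01 over all genes tested. Summed over the γ cluster the level was 1.91-fold higher (1.83 to 1.99), just under the rule. It was made of 162.6 CPM gained over 16 members and 23.2 CPM lost over the other 6. The γ genes fall into the subfamilies A, B and C by sequence of the variable exon. The A subfamily stood at 169 CPM with TGF-β and 64.9 in the control, 2.60-fold higher (2.45 to 2.76). The B subfamily stood at 90.6 and 71.8 CPM, 1.26-fold higher (1.18 to 1.35), and the C subfamily at 33.4 and 16.9 CPM, 1.98-fold higher (1.75 to 2.24).

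The A subfamily member PCDHGA3 had 783 counts with TGF-β and 18 in the control, against 1 with BDS4 and 0 with RVX-208. Its level of 35.5 CPM with TGF-β was 47.1-fold above the 0.754 CPM of the control (29.6 to 79.8). PCDHGA8 had 28.8 CPM with TGF-β and 1.72 in the control, 16.8-fold higher (12.2 to 23.6). PCDHGA9 had 22.3 and 1.34 CPM, 16.7-fold higher (11.7 to 24.6). The B subfamily member PCDHGB1 had 15.0 and 1.34 CPM, 11.2-fold higher (7.80 to 16.7). Each of the 4 held between 5.13% and 12.1% of the γ counts with TGF-β, and between 0.491% and 1.12% in the control. Together they had 2244 counts with TGF-β and 123 in the control. Without them, a choice made after their values were seen, the γ sum was 1.29-fold higher with TGF-β than in the control (1.23 to 1.35).

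Smaller calls in the same direction were PCDHGA6, PCDHGA4, PCDHGB5 and PCDHGC3. PCDHGA6 had 23.9 CPM with TGF-β and 6.91 in the control, 3.45-fold higher (2.90 to 4.14). PCDHGC3, one of the C-type genes, which are known in mouse neurons for use without random choice, had 30.4 and 8.5 CPM, 3.58-fold higher (3.06 to 4.21). PCDHGA4 was 2.48-fold higher (1.81 to 3.42) and PCDHGB5 2.04-fold higher (1.60 to 2.61). The PCDHGB5 call was lost under scaling by total counts, at 1.94-fold.

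The direction was not shared by the family. PCDHGB7 had 2.81 CPM with TGF-β and 10.8 in the control, 3.85-fold lower (2.91 to 5.16). PCDHGC5, another C-type gene, had 2.85 and 8.16 CPM, 2.86-fold lower (2.14 to 3.87). PCDHGA11 had 18.3 and 27.9 CPM, 1.52-fold lower (1.34 to 1.72), below the rule. PCDHGB4 had 45.9 and 41.3 CPM, a ratio of 1.11 (1.02 to 1.22). Along the chromosome, 7 of the 8 members called higher lie from PCDHGA3 to PCDHGA9. PCDHGC3, also called higher, and the members called lower, PCDHGB7 and PCDHGC5, lie in the part of the cluster nearer the constant exons. PCDHGA5, PCDHGB2, PCDHGB3, PCDHGA7 and PCDHGB4, which lie between called members, were not called.

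**Figure D2:**
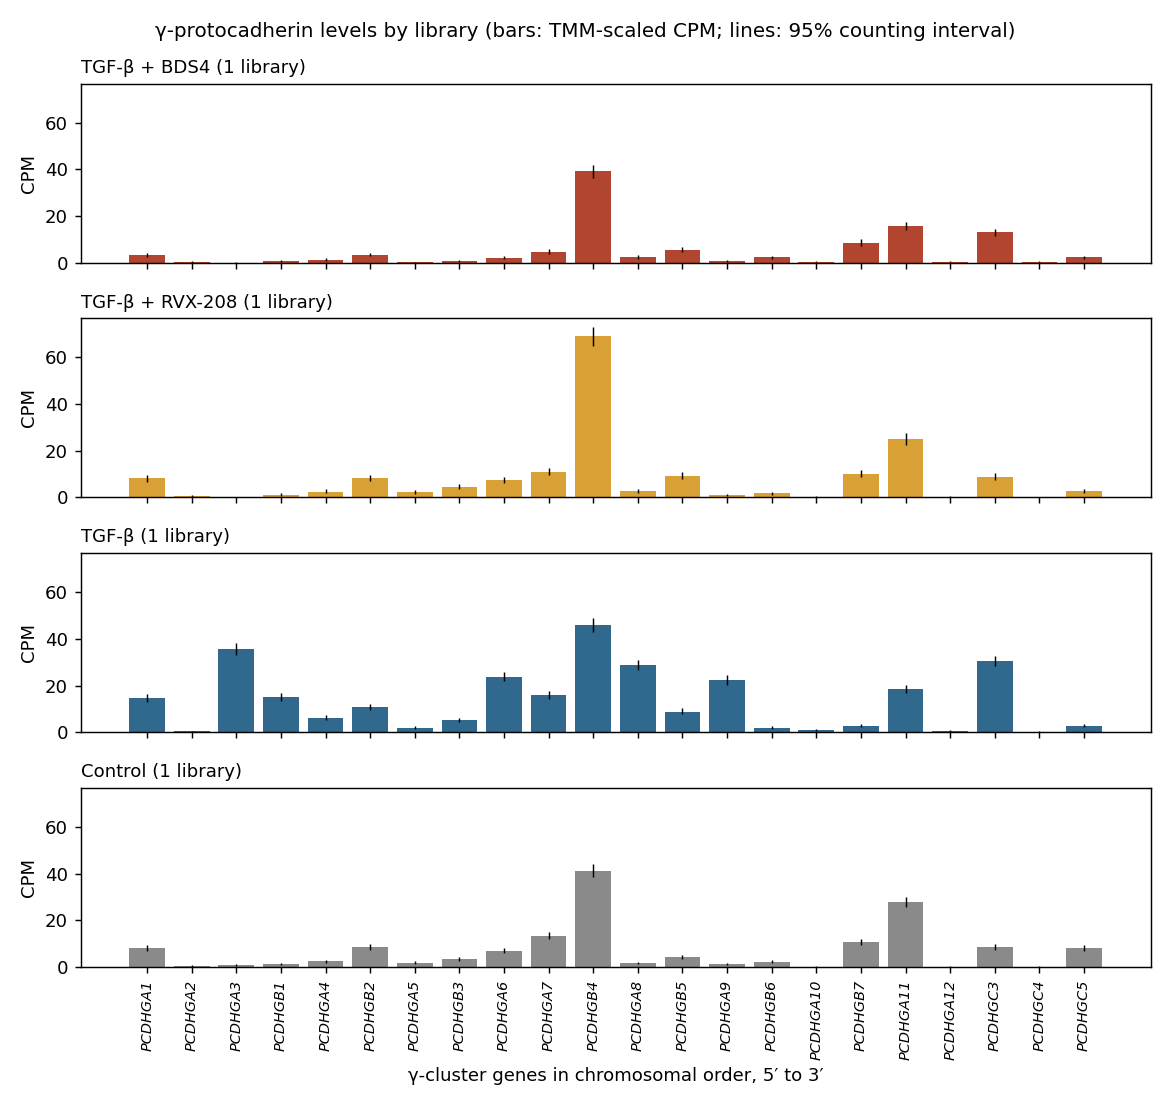
TMM-scaled CPM (vertical axis, one scale) of the 22 γ genes in chromosomal order (horizontal axis), 1 panel per library, with lines for the 95% counting interval. PCDHGA3, PCDHGB1, PCDHGA8 and PCDHGA9 stand out in the TGF-β panel, at 35.5, 15.0, 28.8 and 22.3 CPM, and are below 3 CPM in the other panels.

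With BDS4 plus TGF-β against TGF-β alone, 13 of the 19 members were called lower, 1 higher and 5 neither. The BDS4 library differed from that of TGF-β alone at many genes: over all genes tested 17.7% were called lower and 14.5% higher. The median log2 ratio of the members was -1.72, against -0.01 over all genes. The γ sum was 2.73-fold lower (2.60 to 2.87). Without PCDHGA3, PCDHGB1, PCDHGA8 and PCDHGA9 it was 1.85-fold lower (1.76 to 1.95), which is no call. By subfamily it was 5.41-fold lower for A (4.97 to 5.89), 1.504-fold lower for B (1.40 to 1.62), which was no call, and 2.13-fold lower for C (1.87 to 2.44).

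PCDHGA3 had 0.0490 CPM with BDS4, from a single count, and was 723-fold lower than with TGF-β alone (129 to 28600). PCDHGA9 had 0.687 CPM with BDS4 and 22.3 with TGF-β alone, 32.5-fold lower (19.2 to 59.9). PCDHGB1 had 0.687 and 15.0 CPM, 21.9-fold lower (12.9 to 40.5), and PCDHGA8 had 2.40 and 28.8 CPM, 11.99-fold lower (8.96 to 16.4). With BDS4 these 4 genes thus lay between 0.0490 and 2.40 CPM, against 0.754 to 1.72 CPM in the control. The TGF-β library is shared by this comparison and that of TGF-β against the control.

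PCDHGA6 had 1.96 CPM with BDS4 and 23.9 with TGF-β alone, 12.2-fold lower (8.82 to 17.2), and stood below its control level of 6.91. PCDHGA5 and PCDHGB3, not called with TGF-β against the control, were also called lower with BDS4. PCDHGA5 had 2 counts with BDS4, against 40 with TGF-β alone and 43 in the control, 18.5-fold lower than with TGF-β alone (4.79 to 158). PCDHGB3 had 0.638 CPM with BDS4, 5.16 with TGF-β alone and 3.31 in the control, 8.10-fold lower than with TGF-β alone (4.55 to 15.7). Between 2.35-fold and 4.80-fold lower were PCDHGC3, PCDHGB2, PCDHGA7, PCDHGA1 and PCDHGA4.

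PCDHGB7 went the other way, with 8.58 CPM with BDS4 and 2.81 with TGF-β alone, 3.06-fold higher (2.27 to 4.15). PCDHGB4 had 39.1 and 45.9 CPM, 1.18-fold lower (1.07 to 1.29), and PCDHGA11 15.7 and 18.3 CPM, 1.17-fold lower (1.007 to 1.36). PCDHGB5, PCDHGB6 and PCDHGC5 were not called either. Against the control, the BDS4 library was 3.28-fold lower for the α sum (1.76 to 6.59), 2.60-fold lower for the β sum (1.96 to 3.48) and 1.43-fold lower for the γ sum (1.36 to 1.51).

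Other measures moved with the BDS4 library. It had the highest mitochondrial ribosomal RNA share, 0.903%. Of the 9 measured stellate or mesenchymal markers, 4 were called lower and 0 higher with BDS4 than with TGF-β alone: COL1A1, COL1A2, PDGFRB and TAGLN. Over all genes tested, 17.7% were called lower and 14.5% higher in this comparison. COL1A1, a fibrillar collagen gene, was at 103 CPM with BDS4, against 2935 with RVX-208, 4705 with TGF-β alone and 2075 in the control. Of 6 neuronal markers 5 were tested, with STMN2 at 0. Of the 5, 3 (RBFOX3, SYP and MAP2) were called higher with BDS4 than with TGF-β alone, beside 14.5% of all genes. The summed level of the 6 was 146 CPM with BDS4, 106 with RVX-208, 89.4 with TGF-β alone and 25.7 in the control. Most of that sum was TUBB3, a tubulin gene, with 115, 100.3, 85.8 and 20.1 CPM in that order, and the median log2 ratio of the 5 tested markers with TGF-β against the control was -0.92. The 4 cholangiocyte markers summed to 24.3, 51.6, 105 and 57.5 CPM, in the same order of libraries as the γ sum except that RVX-208 lay just below the control. Hepatocyte markers summed to between 1.62 and 3.80 CPM, with CYP3A4 and TTR at 0, endothelial markers to between 1.57 and 3.26 CPM, with STAB2 at 0, and macrophage markers to between 14.8 and 34.5 CPM. The part of these measures in the protocadherin values was not tested. In RNA from whole cultures, fewer cells using a promoter and less RNA per cell cannot be told apart.

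With RVX-208 plus TGF-β against TGF-β alone, 7 of the 19 members were called lower, 1 higher and 11 neither. Over all genes tested, 5.23% were called lower and 2.94% higher. The median log2 ratio of the members was -0.52, against -0.000757 over all genes. The γ sum was 1.66-fold lower (1.59 to 1.73) and did not reach the rule. The A subfamily was 2.76-fold lower (2.58 to 2.96) and the C subfamily 2.88-fold lower (2.46 to 3.40), while the B subfamily was 1.15-fold higher (1.08 to 1.22).

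The genes called lower with RVX-208 were PCDHGA3, PCDHGA9, PCDHGB1, PCDHGA8, PCDHGC3, PCDHGA6 and PCDHGA4. The comparison shares the TGF-β library with that of TGF-β against the control, so a high value in this library enters both. PCDHGA3 was at 0 counts with RVX-208 and at least 199-fold lower than with TGF-β alone, computed against the floor of 3 counts. PCDHGA9 had 0.951 CPM with RVX-208 and 22.3 with TGF-β alone, 23.5-fold lower (14.3 to 41.4). PCDHGB1 had 1.13 and 15.0 CPM, 13.3-fold lower (8.40 to 22.4), and PCDHGA8 2.73 and 28.8 CPM, 10.5-fold lower (7.81 to 14.5). PCDHGC3 had 8.79 and 30.4 CPM, 3.46-fold lower (2.89 to 4.17). In the control, PCDHGA9 and PCDHGB1 had 1.34 CPM, PCDHGA8 1.72 and PCDHGC3 8.5. PCDHGA3, with 0 counts with RVX-208 and 18 in the control, lay below its control level.

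PCDHGB7 was the single member called higher, with 10.2 CPM with RVX-208 and 2.81 with TGF-β alone, 3.62-fold higher (2.69 to 4.92), beside 10.8 in the control. PCDHGB4 reached its highest level with RVX-208, 69.0 CPM, 1.502-fold above TGF-β alone (1.38 to 1.64). Against the control, the RVX-208 library was 1.15-fold higher for the γ sum (1.10 to 1.21), and the intervals for the α sum (0.502 to 1.33) and the β sum (0.625 to 1.002) included 1.

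**Figure D3:**
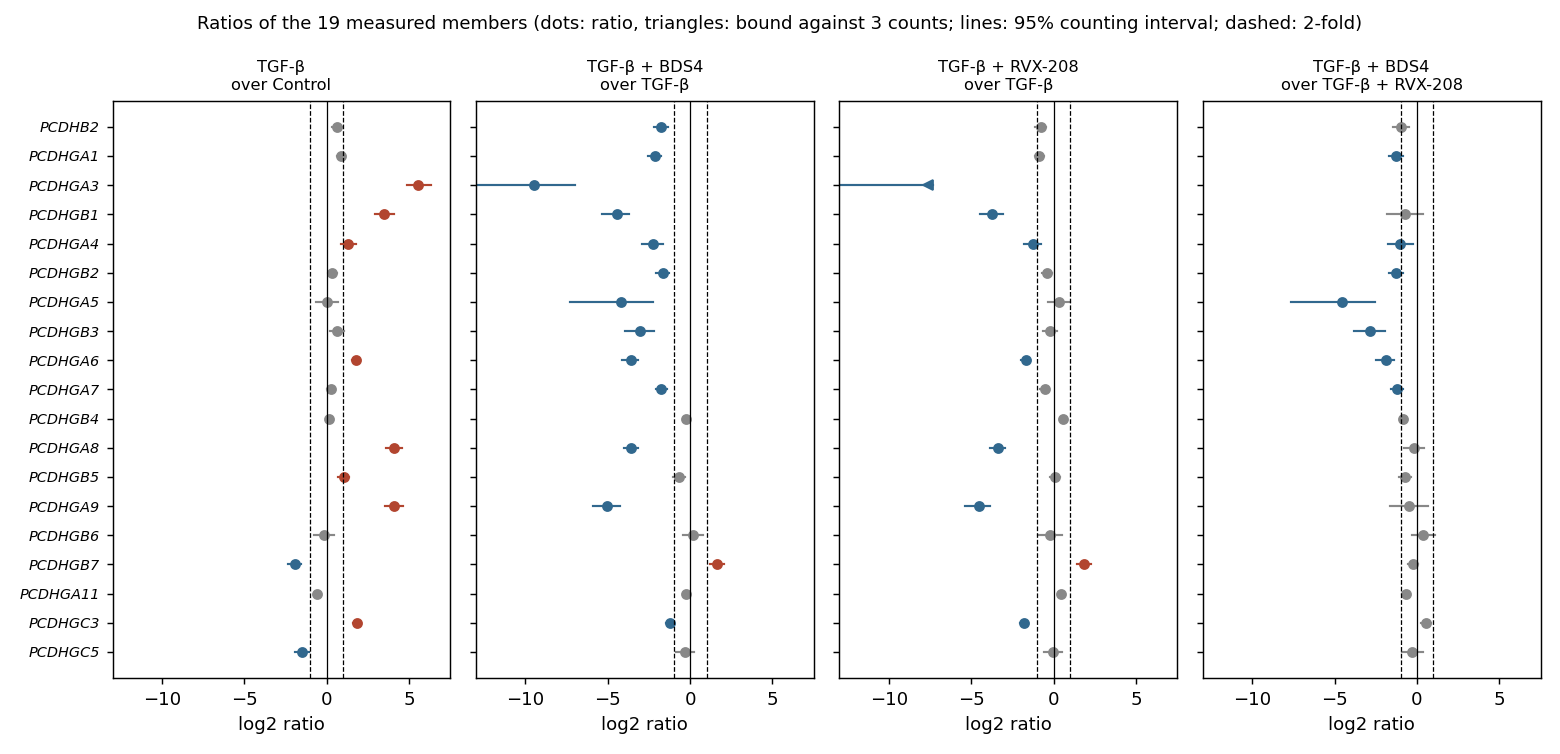
Log2 ratio (horizontal axis) of each of the 19 tested members (vertical axis, chromosomal order from the top) in the 4 comparisons, with lines for the 95% counting interval, red for called higher, blue for called lower and grey for neither, dashed lines at 2-fold. PCDHGB7 lies on the left in the panel of TGF-β over control and on the right in both panels of a compound over TGF-β, and PCDHGA3 has no point in the last panel because it had 1 count or fewer in both libraries.

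The make-up of the γ counts followed these shifts. PCDHGB4 was the largest member in each library, with 36.5% of the γ counts with BDS4 (Wilson 95% interval 34.5 to 38.5), 39.0% with RVX-208 (37.3 to 40.8), 15.7% with TGF-β alone (14.8 to 16.6) and 26.8% in the control (25.4 to 28.3). Per length, in the deposited FPKM, PCDHGB4 was also the highest member, at 3.89, 7.19, 4.89 and 4.61 FPKM in the same order. The next by FPKM was PCDHGA11 with BDS4 (1.41), with RVX-208 (2.34) and in the control (2.80), but PCDHGA3 with TGF-β alone (3.56). PCDHGA3 held 12.1% of the γ counts with TGF-β alone (11.3 to 12.9) and 0.491% in the control (0.311 to 0.774). The 5 largest members held 76.4% with BDS4, 70.4% with RVX-208, 56.1% with TGF-β alone and 66.3% in the control, so the counts were spread most widely with TGF-β alone. The A subfamily held 29.1%, 34.6%, 57.7% and 42.3% of the γ counts in that order, and the B subfamily 56.2%, 58.9%, 30.9% and 46.8%.

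**Figure D4:**
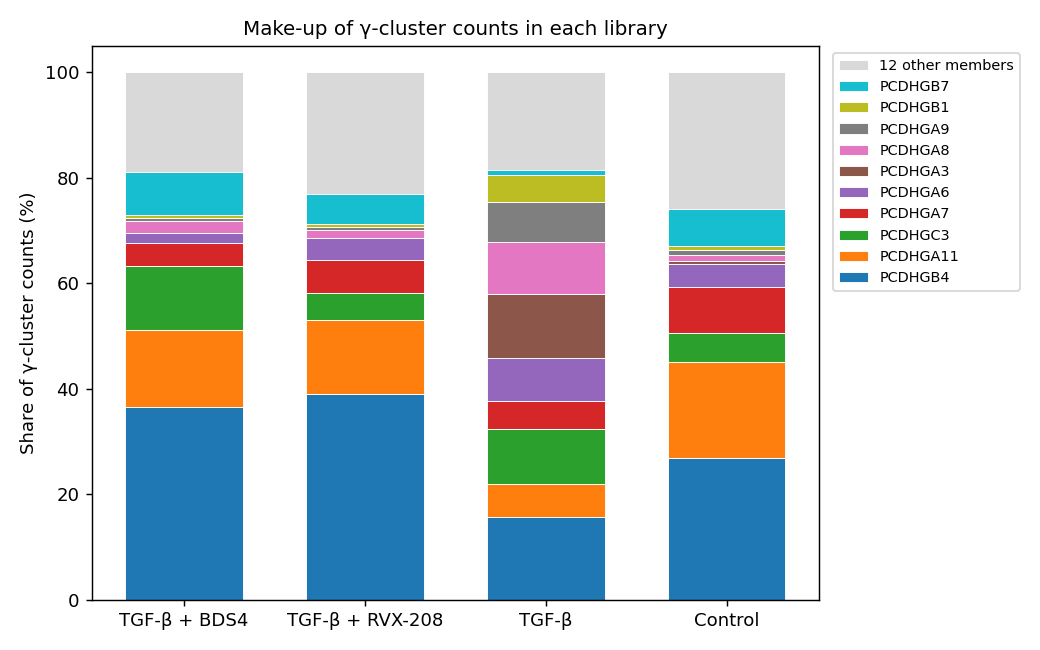
Share of each library's γ-cluster counts (vertical axis, percent) taken by 10 named members and by the other 12 together, 1 column per library. PCDHGB4 takes 36.5% with BDS4, 39.0% with RVX-208, 15.7% with TGF-β and 26.8% in the control. PCDHGA3, PCDHGA8, PCDHGA9 and PCDHGB1 each take at least 5.13% in the TGF-β column and at most 2.24% in any other column.

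BDS4 and RVX-208 were compared directly at the matched dose of 5 µM and time of 24 h, which is 1 pair of compounds. BDS4 was lower for 7 of the 19 members, higher for 0 and neither for 12, against 13.1% of all genes tested called lower and 11.7% called higher. The median log2 ratio was -0.73, against -0.01 over all genes. The γ sum was 1.65-fold lower with BDS4 than with RVX-208 (1.56 to 1.74), below the rule. The α sum was 2.70-fold lower (1.36 to 5.66) and the β sum 2.06-fold lower (1.51 to 2.83), both calls, the first of them on 13 and 29 counts.

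None of the 4 genes with the largest ratios of TGF-β to control was among these 7. PCDHGA5 had 0.0981 CPM with BDS4 and 2.26 with RVX-208, 23.02-fold lower (5.95 to 197). PCDHGB3 had 0.638 and 4.51 CPM, 7.08-fold lower (3.90 to 13.9). PCDHGA6 had 1.96 and 7.37 CPM, 3.75-fold lower (2.61 to 5.51). PCDHGA1, PCDHGB2 and PCDHGA7 were between 2.32-fold and 2.44-fold lower. PCDHGA4 was 2.004-fold lower (1.203 to 3.40), a call lost at 1.97-fold with DESeq2 size factors, and PCDHB2 was 1.96-fold lower (1.40 to 2.75), a call gained at 2.05-fold under scaling by total counts.

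For those 4 genes, the compounds were not told apart within counting error. The ratio of BDS4 to RVX-208 was 0.879 for PCDHGA8 (0.576 to 1.34), 0.722 for PCDHGA9 (0.327 to 1.58) and 0.608 for PCDHGB1 (0.282 to 1.28). PCDHGA3 had 1 and 0 counts, and no fold is given. These intervals leave room for differences of up to 3.54-fold, so they do not show that the compounds act alike. PCDHGC3 had 12.9 CPM with BDS4 and 8.79 with RVX-208, 1.47-fold higher (1.2 to 1.81). PCDHGB7 had 8.58 and 10.2 CPM, a ratio of 0.845 (0.680 to 1.05).

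The other genes near the clusters were followed to see whether the whole region moved. Within 1 Mb of the clusters 35 other genes were listed, and 30 passed the filter. With TGF-β against the control 1 was called higher, ARAP3, and 3 lower, NRG2, CYSTM1 and CD14, with a median log2 ratio of 0.08, beside 5.32% and 4.35% of all genes. With BDS4 against TGF-β alone 3 were called higher, NRG2, CYSTM1 and HBEGF, and 2 lower, PFDN1 and ARAP3, with a median of 0.23, beside 14.5% and 17.7% of all genes, so calls were no more frequent than in the background. With RVX-208 against TGF-β alone 1 was called, CD14, lower, with a median of -0.06, beside 5.23% of all genes. TAF7, a general transcription factor subunit gene between the β and γ clusters, named after its values were seen, had 313 CPM with BDS4, 202 with RVX-208, 203 with TGF-β alone and 179 in the control. ARAP3, a regulator of small GTPases on the far side of the γ cluster, had 35.7, 115, 179 and 76.4 CPM, in the same order of libraries as the γ sum, and was 5.01-fold lower with BDS4 than with TGF-β alone (4.63 to 5.43).

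**Figure D5:**
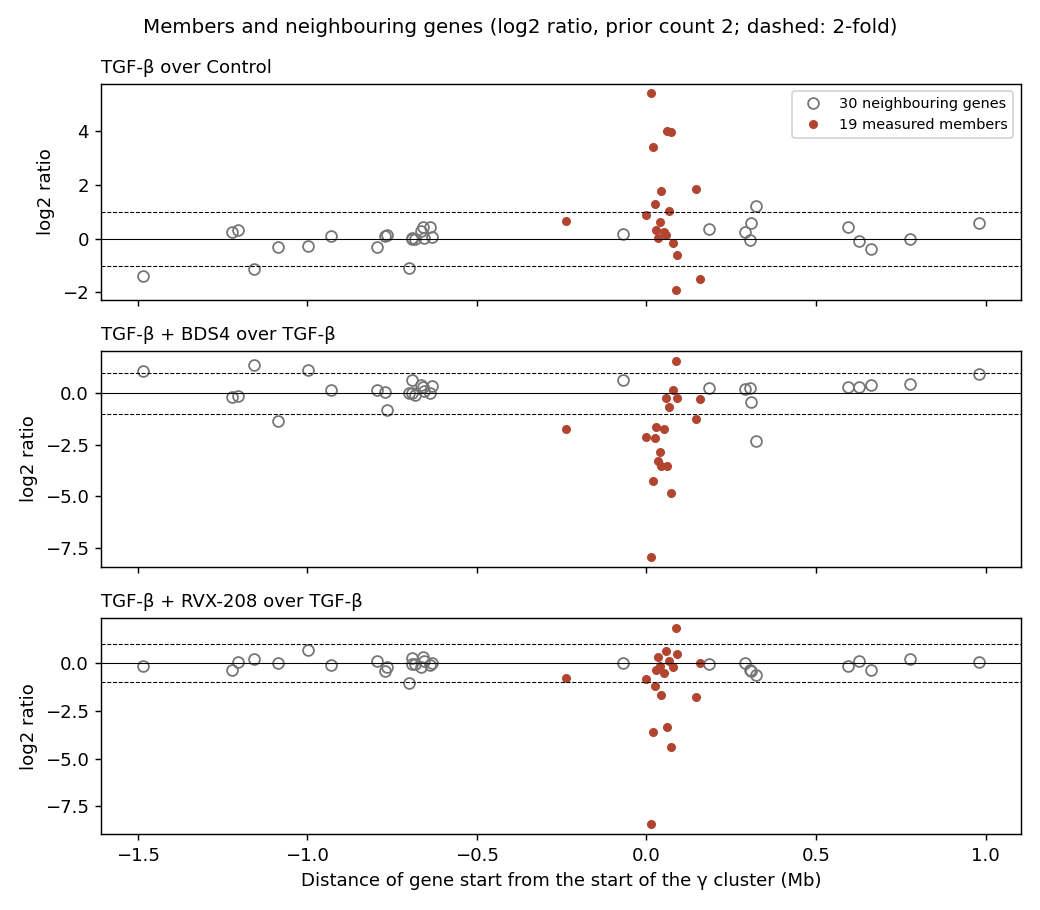
Log2 ratio with a prior count of 2 (vertical axis) of the 19 tested members (filled) and of the 30 tested neighbouring genes (open) against the distance of the gene start from the start of the γ cluster in Mb (horizontal axis), 1 panel per comparison, dashed lines at 2-fold. Most neighbours lie between the dashed lines, with medians of 0.08, 0.23 and -0.06 from top to bottom, and the point of PCDHGA3 with RVX-208, at 0 counts, depends on the prior count and is no bound.

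Of 32 genes for the machinery known to act on the clusters in other cells (CTCF, cohesin, the silencing factor SMCHD1, methyltransferases and their partners), 31 were tested. With TGF-β against the control, and with RVX-208 against TGF-β alone, 0 were called in either direction under a rule that has no replicate test behind it. Over all genes tested, 5.32% were called higher and 4.35% lower with TGF-β, and 2.94% and 5.23% with RVX-208. At such shares, 0 calls of 31 say little about the machinery. With BDS4 against TGF-β alone 1 was called higher and 4 lower, of 31, beside 14.5% and 17.7% of all genes, so calls were no more frequent than in the background. DNMT3B, a de novo DNA methyltransferase, had 31.2 CPM with BDS4 and 9.83 with TGF-β alone, 3.18-fold higher (2.72 to 3.73). DNMT3A, its sister enzyme, had 10.8 and 41.3 CPM, 3.82-fold lower (3.29 to 4.44). TET2, which oxidises methylated DNA, was 3.32-fold lower (2.71 to 4.10). WIZ, a zinc finger protein at chromatin loops, was 2.80-fold lower (2.52 to 3.11), and MAU2, a cohesin loader subunit, 2.30-fold lower (2.04 to 2.59). CTCF, named for its role after its values were seen, had 65.1 CPM with BDS4, 77.8 with RVX-208, 72.9 with TGF-β alone and 68.9 in the control.

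A further list held 18 genes for binding partners and proteases of clustered protocadherins, all measured. None was called with TGF-β against the control or with RVX-208 against TGF-β alone. Over all genes tested, 5.32% were called higher and 4.35% lower with TGF-β, and 2.94% and 5.23% with RVX-208, so this says little for 18 genes. With BDS4 against TGF-β alone 4 were called higher and 3 lower, of 18, near the 14.5% and 17.7% of all genes. Among the parts of γ-secretase, the protease that cuts the γ tails in the membrane, PSEN2 had 34.1 CPM with BDS4 and 16.5 with TGF-β alone, 2.07-fold higher (1.82 to 2.36). NCSTN had 35.99 CPM with BDS4 and 81.5 with TGF-β alone, 2.26-fold lower (2.08 to 2.47), and APH1A and APH1B were 2.09-fold and 2.04-fold lower. RET, a receptor kinase that in mouse neurons phosphorylates protocadherins, was 3.51-fold higher (2.75 to 4.51), and ABI1, of the WAVE complex that remodels actin, 2.50-fold higher (2.33 to 2.68).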

How the data were processed

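Per the labels' protocols, RNA came from LX-2 cultures, 1 library per group. Raw counts per gene and FPKM values were deposited by the authors. FPKM came from StringTie 1.3.0, per the series' design text, and TopHat2 2.0.6, CASAVA 1.8 and GRCh38 are named in the submitters' processing notes. The kit was stranded. The counting program, its annotation, its strand setting and its treatment of shared exons are not stated in these sources. For 9069 genes with over 200 counts in each library, a gene length was worked out from count, library total and deposited FPKM. It differed between the libraries by at most 0.000417%. This check used no annotated length, and the lengths can differ from GENCODE 29, as for PCDHB2 (7566 against 4126 exon bases). Of the 63241 genes, 58228 are in GENCODE 29. The BDS4 column was matched through the sample description, as its name does not hold the compound's.

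Counts were scaled by TMM factors of 0.943 (BDS4), 0.989 (RVX-208), 1.01 (TGF-β) and 1.06 (control), from edgeR 4.0.16 in R 4.3.3. The filter kept 16099 genes that reached 1 CPM in 1 or more libraries. Ratios have 95% conditional exact (Clopper-Pearson) intervals, and shares Wilson intervals, for counting error only. A ratio against a library at 0 is a bound computed against 3 counts in that library. Log2 medians use a prior count of 2. Named members have at least 20 counts in 1 library. From other lists, called members are named as examples, up to 6 per list and comparison, unless the text says otherwise. One result is not reported here. The members and lists were chosen with earlier results of these data known. Other scalings (total counts, DESeq2 1.42.0 size factors), filters, fold thresholds, prior counts and sums were tried. Calculations used Python 3.11.15, numpy 2.4.6, scipy 1.17.1, pandas 2.3.3 and matplotlib 3.10.9.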

Additional observations from a re-analysis of the deposited data

How the results depend on the processing

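Of 76 values recomputed with another scaling, filter, threshold, prior count or sum, 66 kept their direction and stayed within a set band, and 10 moved further. For sums the band was the counting interval of the reported value, and for counts of calls it was 1.5 times. For medians it ran from the median of the members' lower bounds to that of their upper bounds, which is no interval of the median itself. One of the 10, the β sum with TGF-β against the control, which was not called, crossed from above 1 to below 1. At a 1.5-fold threshold 11 members separated BDS4 from RVX-208, and at 3-fold 3 did, against 7 at 2-fold. Under scaling by total counts the γ sum was 1.82 times the control with TGF-β, and with BDS4 0.342 times TGF-β alone. Without PCDHGB4, its largest member, the γ sum was 2.20 times the control with TGF-β, past the 2-fold rule, and 0.276 and 0.437 times TGF-β alone with BDS4 and RVX-208. Without PCDHB2 the β sum was 0.878 times the control with TGF-β, 0.176 times TGF-β alone with BDS4, and 0.340 times RVX-208 with BDS4. Of 4 alternatives chosen after seeing the data, which leave PCDHGA3, PCDHGB1, PCDHGA8 and PCDHGA9 out of the γ sum, 3 moved. The sum was then 1.29 times the control with TGF-β, and 0.540 times TGF-β alone with BDS4, no longer a 2-fold call. With RVX-208 it was 0.899 times TGF-β alone. The 4 genes were picked for their ratios of TGF-β to control, and all 3 values use the TGF-β library, so shifts toward 1 were built in. No α symbol ends in P, so adding such rows gave no α value, and the pseudogene PCDHA14 was already in the α sum. No paired analysis was possible because each group had 1 library, and no replicate could be left out. Depth limits the α genes and all β genes other than PCDHB2, and a difference between cultures was not measured.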

Other observations

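The non-clustered protocadherins and FAT or Dachsous cadherins lie outside the clusters and share no constant exons. Of 18 listed, 11 were tested. Over all genes tested, 5.32% were called higher and 4.35% lower with TGF-β against the control. With TGF-β against the control 3 were called higher: PCDH1, with 34.4 and 3.89 CPM and a ratio of 8.83 (7.11 to 11.1), PCDH10, at 2.32-fold, and FAT1, at 2.19-fold. With BDS4 against TGF-β alone 3 were called higher and 1 lower, of 11, beside 14.5% and 17.7% of all genes. PCDH9 had 127 CPM with BDS4 and 24.8 with TGF-β alone, 5.12-fold higher (4.66 to 5.62). PCDH17 had 15.2 and 3.80 CPM, 4.01-fold higher (3.14 to 5.16), and PCDH10 was 2.13-fold higher (2.01 to 2.25). DCHS1, the ligand of FAT4 in planar cell polarity, had 4.32 and 35.0 CPM, 8.10-fold lower (6.49 to 10.2). It was 2.16-fold lower with RVX-208 than with TGF-β alone (1.88 to 2.49), the single call there, beside 5.23% of all genes.

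Of 23 other cadherins and catenins 13 were tested. With TGF-β against the control 1 was called higher and 1 lower, beside 5.32% and 4.35% of all genes. With BDS4 against TGF-β alone 2 were called higher and 1 lower, beside 14.5% and 17.7% of all genes. CDH11, the cadherin of mesenchymal and stellate cells, had 18.8 CPM with BDS4, 71.7 with RVX-208, 105 with TGF-β alone and 35.2 in the control, the same order of libraries as the γ sum. It was 2.99-fold higher with TGF-β than in the control (2.76 to 3.24) and 5.60-fold lower with BDS4 than with TGF-β alone (5.02 to 6.25). CDH10 was 5.10-fold lower with TGF-β than in the control (3.61 to 7.37). CDH6 and JUP were 4.66-fold and 2.20-fold higher with BDS4 than with TGF-β alone. With RVX-208 against TGF-β alone 0 were called under this rule without replicates, beside 2.94% of all genes called higher and 5.23% lower.

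The 7 pseudogene rows of the clusters held few counts. PCDHGB9P had 2 counts with BDS4, 0 with RVX-208, 3 with TGF-β alone and 6 in the control, and the fuller of the rows named PCDHGB8P had 2, 7, 8 and 2.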
